A study of Mus musculus with 35 samples.

Results

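The genes of the T cell receptor and its coreceptors, kinase and costimulatory receptor, together with the interleukin 7 receptor, were followed on arrays of the mouse suprarenal aorta: Cd3d, Cd3e, Cd3g, Cd4, Cd8a, Cd8b1, Lck, Cd28 and Il7r. Their probes were found by the gene name in the scanner files, which gave 17 probes of 9 genes among 41174 probes and 27745 gene names on the array. Each of the 9 genes had at least one probe that was well above background in the aorta channel on 3 or more arrays, and so was among the 18750 genes tested. The members were listed by name, with earlier results of these data known. Il7r was moreover selected on its higher level at 28 days in these same data. Its values at 28 days, and every quantity that contains them, are therefore given as a description without a test.

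The aortas came from male ApoE-/- mice, which lack apolipoprotein E, become hypercholesterolaemic and are prone to atherosclerosis. An osmotic minipump was implanted under the skin at 12 to 14 weeks of age and delivered either saline or angiotensin II, written Ang II here, at 1000 ng/kg/min for 7, 14 or 28 days. Saline was given to 6 mice for 7 days, 6 mice for 14 days and 5 mice for 28 days. Ang II was given to 4 mice for 7 days with the aorta not dissected, 5 mice for 14 days and 6 mice for 28 days, and 3 further aortas had dissected by 7 days. All 35 aortas therefore share the ApoE-/- background, and Ang II in such mice is a common model of abdominal aortic aneurysm. The vessel was perfused with saline and the whole suprarenal segment was frozen, so wall, attached tissue and cells within them were measured together, and a larger number of cells cannot be told apart from more RNA per cell. Each array compared 1 aorta, labelled with Cy5, with a universal mouse reference RNA labelled with Cy3, and every value below is the log2 ratio of aorta to reference unless another quantity is named.

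T cells recognise antigen through a receptor whose signalling part is the CD3 complex of delta, epsilon and gamma chains together with the zeta chain. The coreceptors CD4 and CD8 bind the peptide-presenting molecule and bring the Src-family kinase LCK to the receptor, where LCK phosphorylates tyrosines in the motifs of the CD3 chains. CD28 gives the costimulatory signal that a naive T cell needs. IL7R is the alpha chain of the receptor for interleukin 7, a survival cytokine of naive and memory T cells, and also pairs in the receptor for thymic stromal lymphopoietin; it is found on innate lymphoid cells and B cell precursors too. In the Ang II model T cells and macrophages are known to enter the aortic adventitia, and lymphoid aggregates form there in aged ApoE-/- mice.

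The probes printed here show what part of a member the array read. The Cd3d probe lies on the mm8 build at chr9:44737083-44737314 on the plus strand and reads the cytoplasmic tail. The capitals mark both tyrosine-to-leucine stretches of its activation motif, the part that LCK phosphorylates. The Cd3g probe spans chr9:44724628-44725212 on the minus strand. Positions that span more than 60 bases cross an intron. The Cd4 probe is at chr6:124833307-124833366, a Cd8a probe is at chr6:71303400-71303459 and an Il7r probe is at chr15:9455913-9455972.
Cd3d: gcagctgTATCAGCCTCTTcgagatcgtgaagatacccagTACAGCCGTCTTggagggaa
Cd3g: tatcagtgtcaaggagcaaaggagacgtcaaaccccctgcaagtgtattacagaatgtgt
Cd4: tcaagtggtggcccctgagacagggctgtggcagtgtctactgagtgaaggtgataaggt
Cd8a: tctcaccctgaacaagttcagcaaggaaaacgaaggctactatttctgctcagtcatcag
Il7r: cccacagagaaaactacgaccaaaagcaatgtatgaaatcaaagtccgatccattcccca

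The start regions of Cd3d and Il7r are shown because these genes had the largest differences at 28 days among the tested probes of the members. They are the 250 bases before the start in RefSeq on GRCm38.p6, at chr9:44981536-44981785 on the plus strand and chr15:9529877-9530126 on the minus strand, written in the direction of the gene. Capitals mark matches on either strand to GGAAGT, a core bound by ETS factors. That core occurred in 4 of the 6 members with an entry (Cd3d, Cd3e, Lck and Il7r) and in 19.7 percent of 32851 such windows. The core TGTGGT of RUNX factors was found upstream of Lck, against 14 percent of windows. The sequence AGATAA, a core of GATA factors, was found upstream of Cd3g, against 9.99 percent. The E-box CAGCTG was in none of the 6, against 13 percent.
Cd3d upstream: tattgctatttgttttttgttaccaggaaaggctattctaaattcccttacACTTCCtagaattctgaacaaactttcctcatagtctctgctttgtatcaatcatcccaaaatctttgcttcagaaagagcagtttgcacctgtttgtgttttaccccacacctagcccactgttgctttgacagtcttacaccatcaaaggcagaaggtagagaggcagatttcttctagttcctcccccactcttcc
Il7r upstream: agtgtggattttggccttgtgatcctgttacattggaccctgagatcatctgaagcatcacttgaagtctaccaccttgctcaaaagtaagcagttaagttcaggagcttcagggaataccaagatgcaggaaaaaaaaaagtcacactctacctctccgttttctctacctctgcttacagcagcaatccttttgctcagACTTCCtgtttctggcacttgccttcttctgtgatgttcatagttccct

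A few facts of the arrays touch the members. Glycam1, a mucin of the high endothelial venules of lymph nodes, was at 3.34 to 5.05 on 8 arrays and at -0.38 to 1.27 on the other 27, and was well above background on 11. The 8 arrays were saline 7 days replicates 3 and 6, Ang II 7 days replicate 3, saline 14 days replicate 6, saline 28 days replicate 3, and Ang II 28 days replicates 1, 5 and 6. On 3 other saline arrays (7 days replicate 5, and 28 days replicates 2 and 4) the local background correction had raised bright spots by 189 to 329 intensity units in the aorta channel, against 2.05 to 88.3 on the other arrays, and the median absolute deviation of their log2 ratios was 0.0623 to 0.143, against 0.225 to 0.58. Values from a second processing that used each array's median background, chosen after seeing the data, are therefore given for 28 days, where it raised bright spots by -2.44 to 5.92 units. The arrays were scanned on 2 days. All 3 dissected aortas were scanned on day 2, and every other group was split over both days. Of the non-dissected Ang II aortas at 7 days 3 were scanned on day 1 and 1 on day 2, so dissection is largely confounded with scan day there.

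Among the CD3 chains, Cd3d was low on most arrays and high on a few in saline and Ang II groups alike. At 7 days the saline aortas ran from 0.29 to 3.03 with a median of 0.65, the Ang II aortas were at 0.71, 0.29, 2.85 and 0.38, and the dissected aortas at 1.19, 1.23 and 0.71. At 14 days saline ran from 0.06 to 4.14 with a median of 0.58, and Ang II stood at 0.68, 0.39, 0.93, 0.81 and 0.89. At 28 days the saline aortas were at 0.02, 0.03, 2.51, 0.03 and 0.26, and the Ang II aortas at 1.51, 0.25, 1.14, 0.66, 4.64 and 4.47. The groups overlapped at every time, and in each saline group the highest aorta was one of the 8 with high Glycam1.

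The Cd3d difference, Ang II minus saline, was -0.11 (SE 0.79) at 7 days, -0.35 (SE 0.75) at 14 days and 1.54 (SE 0.75) at 28 days. The limma adjusted p, by Benjamini-Hochberg over all genes tested, was 0.94, 0.837 and 0.324. A call here means an adjusted p of 0.05 or less, and none of these was called. The p-values measure only the spread between these aortas. With the 11 arrays on which Glycam1 was well above background left out, 3 Ang II and 4 saline aortas remained at 28 days, and the difference was 0.60 (SE 0.21, limma adjusted p = 0.541). Within scan day 1 it was -0.30 (limma adjusted p = 0.954). Within scan day 2, with 3 aortas in each group, it was 3.16 (limma adjusted p = 0.0344), where 4.94 percent of all genes were called higher.

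**Figure D1:**
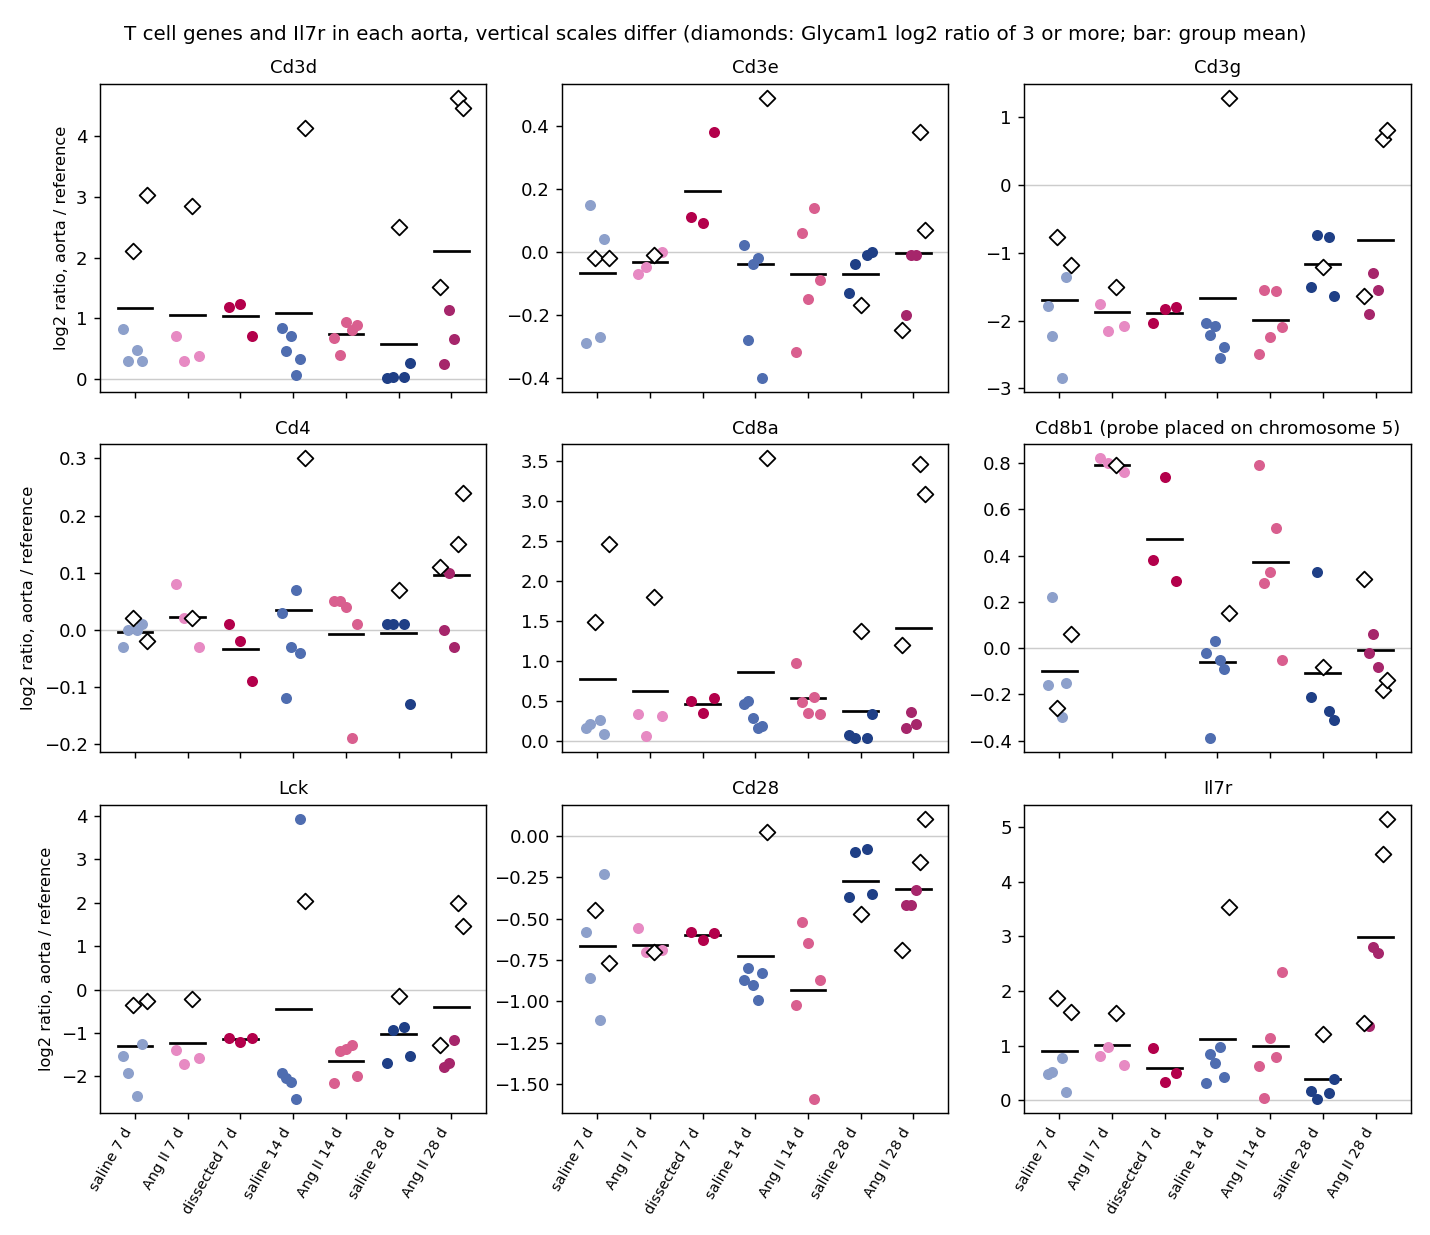
Each panel plots the log2 ratio of aorta to reference of one gene at its brightest probe in each of the 35 aortas, with points as aortas, bars as group means and diamonds as the 8 aortas with a Glycam1 log2 ratio of 3 or more. Most diamonds stand at the top of their groups for Cd3d and Cd8a, and for Il7r all 6 Ang II aortas at 28 days lie above the saline aortas of that time with the local background correction plotted here, though not with array-median background.

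Cd3g, the gamma chain, was well above background on 28 arrays, and its groups overlapped at 28 days. Its 28-day values were -1.5, -0.74, -1.21, -0.76 and -1.64 in saline and -1.64, -1.9, -1.3, -1.55, 0.68 and 0.81 with Ang II. At that time only Ang II replicates 5 and 6 lay above the saline range. At 14 days saline ran from -2.55 to 1.29 with a median of -2.15, and its highest aorta, replicate 6, was the highest of all 35. The 28-day difference in Cd3g was 0.35 (SE 0.52, limma adjusted p = 0.819), and with array-median background, which put the same saline aortas at -1.94, -2.43, -1.33, -2.55 and -1.73, it was 0.99 (SE 0.57, limma adjusted p = 0.415). With the local background correction, leaving out the 11 Glycam1 arrays turned the Cd3g difference to -0.42. Of the 4 saline aortas then left, replicates 2 and 4 were among the arrays raised most by that correction. With array-median background they stood at -2.43 and -2.55 in place of -0.74 and -0.76, so nothing is read from that sign.

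Cd3e, the epsilon chain, stayed near the reference level on every array. Its tested probe, at chr9:44750166-44750225, ranged over all 35 aortas from -0.40 to 0.49, and its second probe, at chr9:44754896-44754955, was well above background on 3 arrays. The difference at 28 days was 0.07 (SE 0.12, limma adjusted p = 0.864). Dissected aortas were at 0.11, 0.09 and 0.38 against a saline range of -0.29 to 0.15 at 7 days, a difference of 0.26 (SE 0.14, limma adjusted p = 0.16). Across the 35 arrays Cd3e followed Cd3d with r = 0.45, given as a description of arrays that share their reference and processing.

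Of the coreceptors, Cd4 gave little signal. Its brighter probe was well above background on 5 arrays and ranged from -0.19 to 0.30, with 0.30 on saline 14 days replicate 6, and 0.15 and 0.24 on Ang II 28 days replicates 5 and 6. The other Cd4 probe, at chr6:124831002-124831060, was well above background on none. At this signal the 7 groups could not be compared for Cd4 beyond these values.

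Cd8a, the alpha chain of the coreceptor of cytotoxic T cells, was well above background on 12 arrays at its tested probe, at chr6:71306845-71306904. At 28 days saline was at 0.07, 0.04, 1.37, 0.03 and 0.33, and Ang II at 1.2, 0.16, 0.36, 0.21, 3.46 and 3.08. The probe was well above background in 1 of the 5 saline and 4 of the 6 Ang II aortas. The groups overlapped, and the highest saline aorta was replicate 3, one of those with high Glycam1. The difference was -0.15 (SE 0.62) at 7 days, -0.32 (SE 0.58) at 14 days and 1.04 (SE 0.58) at 28 days, with limma adjusted p of 0.893, 0.804 and 0.407. These differences are set against values near background: at 7 days 3 of 6 saline and 1 of 4 Ang II aortas were well above it, and at 14 days 1 of 6 and 2 of 5. The other Cd8a probes were high on the same arrays: saline 14 days replicate 6 read 3.59 and 1.75, Ang II 28 days replicate 5 read 3.22 and 0.73, and replicate 6 read 3.53 and 1.23.

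Cd8b1, the beta chain of that coreceptor, had a pair of probes that gave opposite pictures. The brighter one, which is the tested one, is placed by the files at chr5:115404420-115404479, while the other is at chr6:71266583-71266641, on the chromosome of Cd8a. Both were well above background in the aorta channel on 35 arrays. Across the 35 arrays they had r = -0.06 with each other, whereas the chromosome 6 probe had r = 0.98 with Cd3d. The nearest named probes to the chromosome 5 one, 2022 and 4115 bases away on the same strand, belong to 2410014A08Rik (current symbol Mlec, a lectin of the endoplasmic reticulum), and each had r = 0.63 with it, against -0.09 and -0.06 with the chromosome 6 probe. Genes elsewhere were more like the chromosome 5 probe, among them Gosr2 and Cthrc1 with r = 0.83 each. Which transcript the chromosome 5 probe binds was not tested.

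The chromosome 5 probe was higher with Ang II at 7 days. Saline ran from -0.30 to 0.22 with a median of -0.16, Ang II stood at 0.82, 0.80, 0.79 and 0.76, and the dissected aortas at 0.38, 0.74 and 0.29. Every Ang II aorta, dissected or not, lay above every saline aorta of that time. The share of all genes that separate so at 7 days was not counted, and nothing is read from the separation. The difference was 0.89 (SE 0.14), 1.86-fold, with a limma adjusted p of 3.58e-05, and for dissected aortas it was 0.57 (SE 0.15, limma adjusted p = 0.00442). At 14 days it was 0.44 (SE 0.13, limma adjusted p = 0.069), at 28 days 0.10 (SE 0.13, limma adjusted p = 0.796), and the Ang II aortas fell between 7 and 28 days by 0.80 (SE 0.14, limma adjusted p = 0.000871). These calls depended on the normalization: with each array centred on its median in place of loess the difference was 0.69 at 7 days (limma adjusted p = 0.144) and -0.22 for dissected aortas (limma adjusted p = 0.641). With dissected replicate 2 left out, that of dissected aortas was 0.43 (limma adjusted p = 0.0578), and within scan day 2, with 3 saline and 1 Ang II aorta, that at 7 days was 0.92 (limma adjusted p = 0.115).

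The chromosome 6 probe gave no call in any comparison. At 7 days saline ran from 0.72 to 4.64 with a median of 1.55, Ang II was at 0.77, 0.72, 3.77 and 0.87, and dissected aortas at 1.99, 1.84 and 1.52. At 28 days saline was at 0.23, 0.16, 3.82, 0.06 and 0.79, and Ang II at 2.65, 0.27, 1.54, 1.19, 6.21 and 5.7. The groups overlapped at both times. Its differences were -0.68 (SE 1.09) at 7 days, -0.46 (SE 1.02) at 14 days and 1.91 (SE 1.02) at 28 days, with limma adjusted p of 0.693, 0.843 and 0.381. Calls made for Cd8b1 below rest on the chromosome 5 probe.

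**Figure D2:**
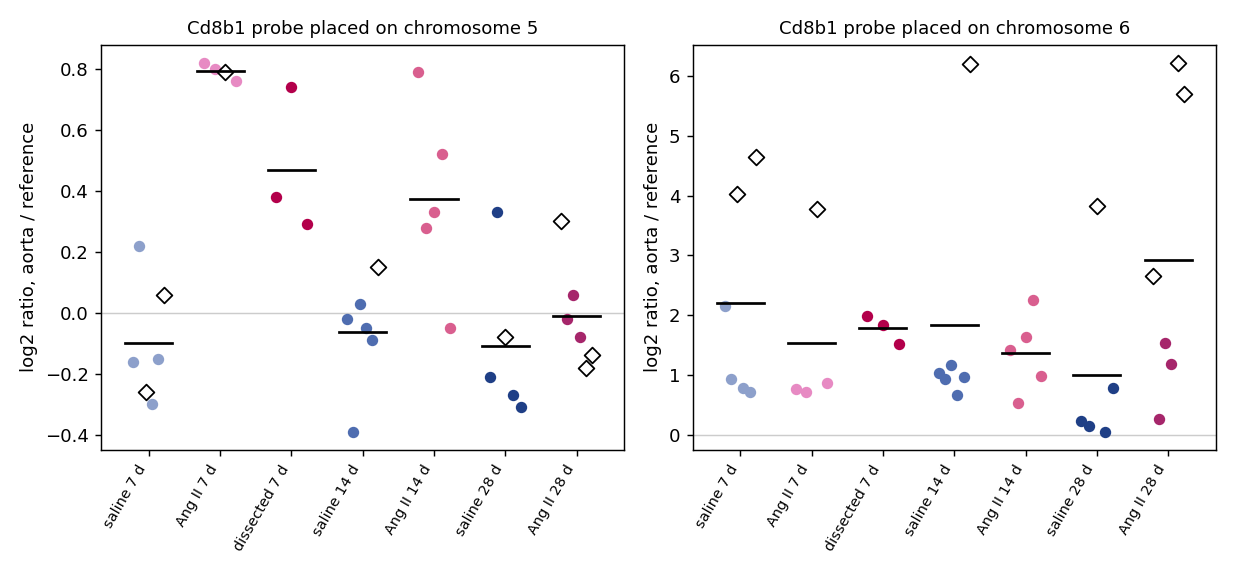
The log2 ratio of aorta to reference is plotted for each aorta at both Cd8b1 probes, with points as aortas, bars as group means and diamonds as aortas with a Glycam1 log2 ratio of 3 or more. The chromosome 5 probe is at 0.76 to 0.82 in the 4 Ang II aortas at 7 days, above all saline aortas, while the chromosome 6 probe is high in the diamond aortas of every group that holds one.

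Lck, the kinase of the receptor complex, was well above background on 33 arrays. At 7 days saline ran from -2.45 to -0.27 with a median of -1.39, Ang II was at -1.4, -1.72, -0.21 and -1.57, and dissected aortas were at -1.11, -1.21 and -1.12. At 28 days saline was at -1.68, -0.92, -0.14, -0.86 and -1.54, and Ang II at -1.27, -1.79, -1.68, -1.15, 1.99 and 1.47. The last 2 Ang II aortas stood above the saline range and the other 4 did not. The 28-day difference was 0.62 (SE 0.84, limma adjusted p = 0.796), and 1.23 (SE 0.81, limma adjusted p = 0.499) with array-median background. With the local background correction, leaving out the 11 Glycam1 arrays turned the Lck difference to -0.29. The saline aortas then left include replicates 2 and 4, which that correction raised most, so nothing is read from that sign. At 14 days the spread of saline, -2.52 to 3.92, came from 2 aortas, replicate 5 at 3.92 and replicate 6 at 2.03. The spot of replicate 5 had a signal of 4506 on a local background of 1447, while that background was 62.5 to 81 on the other arrays.

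Cd28, the costimulatory receptor, was well above background in the aorta on 3 arrays, which were saline 14 days replicate 6 at 0.02 and Ang II 28 days replicates 5 and 6 at -0.16 and 0.10. The other 32 were not well above background, so no fold is given. Those 3 aortas are the ones that also stood highest for Cd3d, Cd3g and Cd8a.

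Il7r was read in all 6 Ang II aortas at 28 days, and with the local background correction all 6 were above all 5 saline aortas of that time, as were those of 193 of 18694 genes (1.03 percent). Nothing is read from that share, since Il7r was chosen on this contrast. With array-median background the groups overlapped: saline was at 0.34, 0.36, 1.59, 1.57 and 0.35, and the lowest Ang II aorta at 1.51. Saline at 28 days was at 0.17, 0.02, 1.21, 0.14 and 0.38, and Ang II at 1.42, 1.36, 2.81, 2.69, 4.51 and 5.15. The probe was well above background in 2 of these 5 saline aortas and in all 6 Ang II aortas. At 7 days saline ran from 0.15 to 1.88 with a median of 0.64, Ang II was at 0.81, 0.98, 1.59 and 0.64, and dissected aortas at 0.95, 0.33 and 0.50. At 14 days saline ran from 0.31 to 3.54 with a median of 0.76, and Ang II was at 0.63, 0.04, 1.13, 0.79 and 2.34. The groups at 7 and 14 days overlapped throughout.

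As group means, Il7r was 2.99 ± 1.56 (SD, n = 6) with Ang II at 28 days, then 1.13 ± 1.21 (SD, n = 6) with saline at 14 days, 1.01 ± 0.41 (SD, n = 4) with Ang II at 7 days, 0.99 ± 0.85 (SD, n = 5) with Ang II at 14 days, and 0.90 ± 0.69 (SD, n = 6) with saline at 7 days. Dissected aortas were at 0.59 ± 0.32 (SD, n = 3) and saline at 28 days was lowest at 0.38 ± 0.48 (SD, n = 5). Apart from the first, neighbours in this order differed by less than their SD. The low saline mean at 28 days includes 2 of the arrays with raised intensities, and with array-median background it was 0.84 ± 0.67 (SD, n = 5), against 3.46 ± 1.42 (SD, n = 6) with Ang II.

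At 28 days the Il7r difference was 2.61 (SE 0.56), and 2.62 with array-median background. Because 3 of the 5 saline aortas were not well above background, no fold is given. Without the 11 Glycam1 arrays the difference was 2.11 (SE 0.38), and leaving out single aortas gave 2.18 to 2.93. It was 1.25 within scan day 1 and 3.89 within scan day 2, and as a mean of all its probes it was 1.42. The aortas with high Glycam1 were split unevenly over the scan days, as given for Cd3d. The further Il7r probes were dim: the one at chr15:9455913-9455972, printed above, was well above background on 4 arrays, where it read 0.48 (saline 14 days replicate 6), 0.69 (Ang II 14 days replicate 4), 0.59 and 0.86 (Ang II 28 days replicates 5 and 6), and the one at chr15:9457540-9457599 was on none.

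In contrasts that the choice of Il7r did not use, it was not called. The difference was 0.11 (SE 0.60, limma adjusted p = 0.923) at 7 days and -0.14 (SE 0.56, limma adjusted p = 0.916) at 14 days. Dissected aortas differed from saline by -0.31 (SE 0.66, limma adjusted p = 0.756) and from non-dissected Ang II aortas by -0.41 (SE 0.71, limma adjusted p = 0.798). Over time in saline the Il7r means were 0.9 at 7 days, 1.13 at 14 days and 0.38 at 28 days. These are a description without a test, since the saline aortas at 28 days entered the choice of Il7r. Between 7 and 28 days of Ang II the description was a difference of 1.99.

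**Figure D3:**
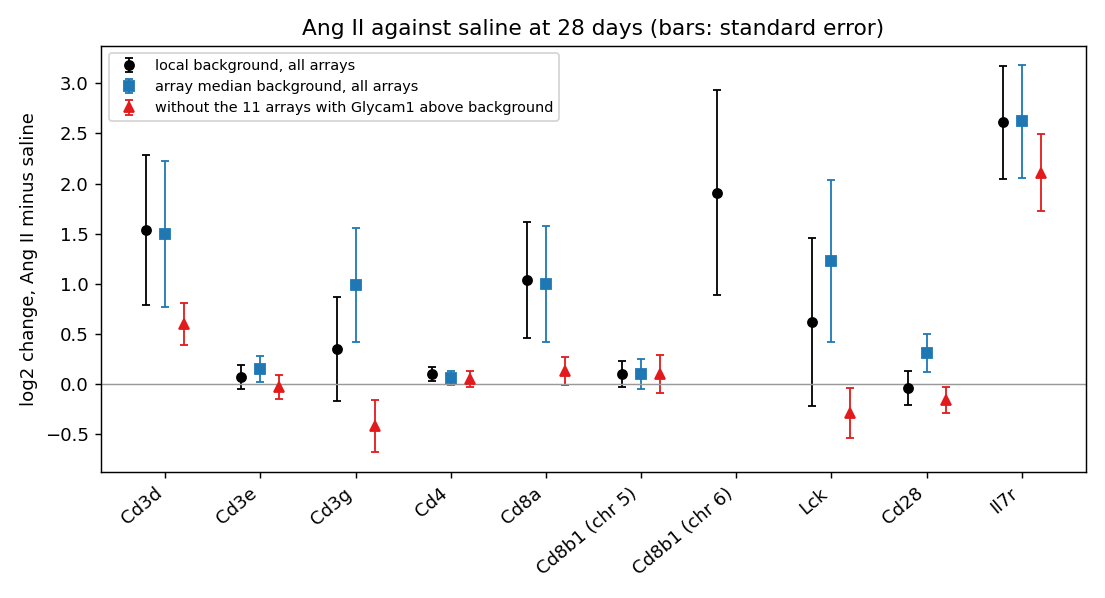
The log2 difference of Ang II minus saline at 28 days is plotted with its standard error for each gene under 3 settings: the local background correction on all arrays (black), the array-median background (blue) and the arrays without Glycam1 above background (red). Il7r stands at 2.61, 2.62 and 2.11, while Cd3d moves from 1.54 to 0.60 when the Glycam1 arrays are left out. The chromosome 6 probe of Cd8b1 is plotted under the first setting alone, and Cd4 and Cd28 are near background on most arrays.

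Across the comparisons the 9 members gave few calls. At 7 days 1 of 9 was called, Cd8b1, which was higher, where 27.1 percent of all genes tested were called (14.5 percent higher and 12.6 percent lower with Ang II). At 14 days 0 of 9 were called against 2.41 percent of all genes, 1.13 percent higher and 1.29 percent lower. At 28 days 0 of the 8 members tested were called against 0.896 percent, 0.832 percent higher and 0.064 percent lower. With array-median background 0 were called there too, against 1.16 percent, of which 0.944 percent were higher. For the mean of the 3 times Cd8b1 alone was called (0.48, SE 0.08, limma adjusted p = 4.01e-05), among 8 members tested, against 27.2 percent of genes (15.6 percent higher and 11.6 percent lower).

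Cd8b1 alone of the 9 was called for dissected aortas against saline, against 36.4 percent of all genes, 18.8 percent higher and 17.6 percent lower. No member was called between dissected and non-dissected aortas, against 8.02 percent, 3.04 percent higher and 4.98 percent lower. Cd8b1 alone was called between 7 and 28 days of Ang II, against 3.43 percent, 0.48 percent higher and 2.95 percent lower at 28 days. Over time in saline no member was called, against 0.496 percent, with Il7r set aside because its 28-day values entered its choice. Where the effect of Ang II was tested for a difference among times, none of the 8 tested was called, against 1.49 percent.

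Lck was called in settings that left out the aortas with Glycam1. With the 11 Glycam1 arrays left out, dissected aortas exceeded saline at 7 days by 0.82 (SE 0.26, limma adjusted p = 0.0217), on 3 aortas against 3, and 17.7 percent of all genes were then called higher. The value with all arrays was 0.15 (SE 0.98, limma adjusted p = 0.923). With array-median background as well, it was 0.84 (SE 0.29, limma adjusted p = 0.0326), with 16.7 percent of genes called higher. Over time in saline, leaving out the same arrays called Lck, Cd3g and Cd28, where 6.62 percent of genes were called. The Cd28 call rests on no saline aorta that was well above background. The same setting with array-median background called none of the members.

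Several members, but not all, were high on the aortas with high Glycam1. On the 8 aortas with Glycam1 of 3 or more, Cd3d was at 1.51 to 4.64 and on the other 27 at 0.02 to 1.23. Cd8a was at 1.2 to 3.53 on the 8 and 0.03 to 0.97 on the others, and the chromosome 6 probe of Cd8b1 at 2.65 to 6.21 and 0.06 to 2.25. These ranges did not overlap between the 8 and the 27. The share of all genes that part these aortas in the same way was not counted, so nothing is read from it. Il7r was at 1.21 to 5.15 on the 8 and 0.02 to 2.81 on the others, so it overlapped, and 2 of the overlapping aortas were Ang II 28 days replicates 3 and 4, whose Glycam1 was not well above background. The r with Glycam1 over all aortas was 0.91 for Cd3d and 0.66 for Il7r, against 0.3 for Cd3e and -0.07 for the chromosome 5 probe of Cd8b1.

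As a description over the 35 aortas, which share the reference RNA and the processing, Cd3d had r = 0.97 with Cd8a and 0.82 with Il7r. On the 27 aortas without high Glycam1 these values were 0.54 and 0.42. There Cd3d had r = 0.84 with the chromosome 6 probe of Cd8b1, but -0.18 with Cd3g and -0.08 with Lck. Il7r there had 0.23 with the chromosome 6 probe, 0.06 with Cd8a, -0.1 with Cd3g and -0.16 with Lck. These 27 include the 3 saline arrays raised by the local background correction, and the Lck spot with the high local background. Over all 35 aortas Cd3d had r = 0.77 with Cd3g and 0.63 with Lck, and 0.9 and 0.76 with array-median background. The low values on the 27 are given for the local correction alone, and nothing is read from them. The genes most like Cd3d over all 35 aortas included Cd8a (r = 0.97) and the lymph node homing receptor gene Ccr7 (0.97). For Il7r they were P2ry10 (0.86), Ccr7 (0.86) and the natural killer receptor gene Klrd1 (0.85), and for Cd3g they were Cd5 (0.97), the T cell factor gene Tcf7 (0.96) and the kinase gene Zap70 (0.96). The part of lymphoid tissue in the T cell differences was not tested.

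**Figure D4:**
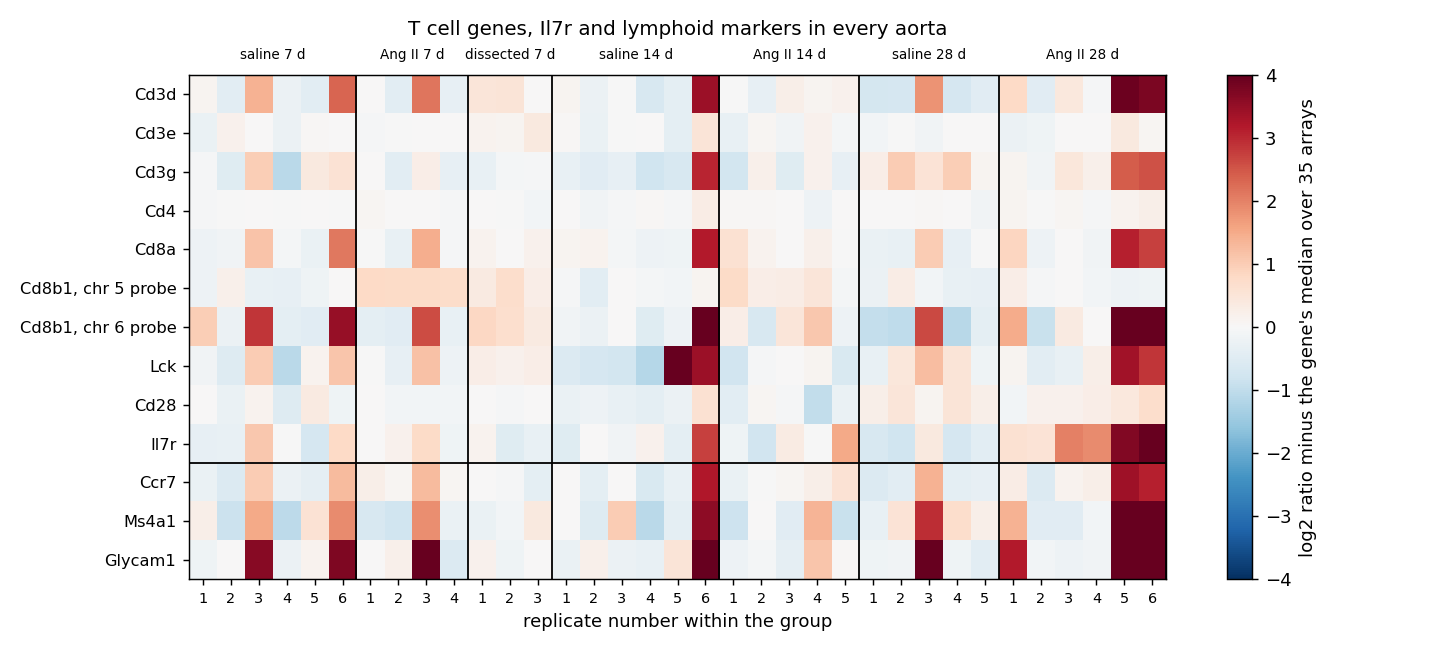
Colour gives each gene's log2 ratio minus its own median over the 35 arrays, on a scale that stops at -4 and 4, with aortas in columns by group and replicate number and genes in rows, the members above the line and the lymphoid genes Ccr7, Ms4a1 and Glycam1 below it. The same columns, among them saline 14 days replicate 6 and Ang II 28 days replicates 5 and 6, are red in Cd3d, Cd8a, the chromosome 6 probe of Cd8b1 and the lymphoid genes.

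**Figure D5:**
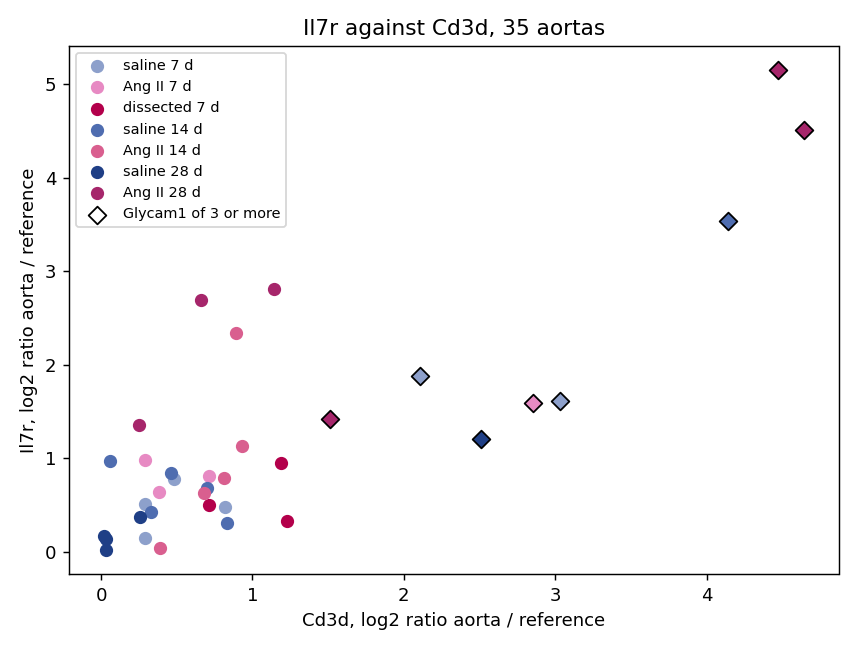
Each point is an aorta, placed by its Cd3d and Il7r log2 ratios of aorta to reference and coloured by group, with diamonds for a Glycam1 log2 ratio of 3 or more. Ang II 28 days replicates 5 and 6 lie at the upper right with Cd3d of 4.64 and 4.47, while replicates 3 and 4 have Il7r of 2.81 and 2.69 at Cd3d of 1.14 and 0.66.

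Other genes of T cells and of the interleukin 7 pathway were read from lists chosen with earlier results of these data known. At 28 days none of the 11 other receptor and surface genes tested was called, with a median difference of 0.63 against 0.04 over all genes; Cd247, the zeta chain, was at 1.11 and Cd7 at 1.02. None of 15 signalling genes was called (median 0.41, with the adaptor Fyb at 1.26 and the kinase Prkcq at 1.18), none of 10 transcription factors (median 0.39) and none of 11 effector and homing genes (median 0.85, with Cxcr3 at 1.57 and Nkg7 at 1.36). Of 14 genes of the interleukin 7 axis none was called (median 0.24). Its largest differences were 1.36 for Il2rb and 0.65 for Il2rg, the common gamma chain that completes the interleukin 7 receptor. With array-median background none of these genes was called at 28 days either. The medians were then 0.68 for receptor and surface genes, 0.79 for signalling genes and 0.56 for transcription factors. Those of the effector and homing genes and the interleukin 7 axis were 0.81 and 0.19. Il7 itself was well above background on 3 arrays.

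At 7 days Thy1 (1.14) was the only 1 of 11 receptor and surface genes called, and the list median was 0.03. Fyb (1.71) and Lcp2 (1.01), an adaptor pair of T and myeloid cells, were the 2 called of 15 signalling genes, with a median of 0. These 3 were higher, as were 14.5 percent of all genes. Gata3 (-2.01), a transcription factor that other cells also express, was among 2 of 10 transcription factors called lower (median -0.15), as were 12.6 percent of all genes. In the interleukin 7 axis Crlf2, the partner of IL7R in the receptor for thymic stromal lymphopoietin and matched on the array through its older name Tpte2, was called higher (1.36, limma adjusted p = 0.00272) and Il15ra lower (-1.09). Crlf2 and Il15ra were the 2 called of 14 genes of that axis, and none of 11 effector and homing genes was called (median 0.06). At 14 days no gene of the 5 lists was called. In dissected aortas against saline Thy1 (1.15), Fyb (2.75), Lcp2 (1.34), Ikzf1 (1.44) and Crlf2 (1.40) were called higher, and Il15ra (-1.71), Il15 (-0.80) and Socs2 (-0.78) lower. Of all genes 18.8 percent were called higher there and 17.6 percent lower. The list medians were -0.08 for receptor and surface genes and 0.12 for signalling genes. Socs2 was also called lower in dissected than in non-dissected aortas (-1.01), as were 4.98 percent of all genes.

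Markers of other cells were read beside these. Macrophage genes were called higher in 11 of 12 at 7 days (median 2.05, with 14.5 percent of all genes called higher) and 12 of 12 in dissected aortas (median 2.30, with 18.8 percent). They were called higher in 2 of 12 at 14 days, with 1.13 percent of all genes, and in 6 of 12 at 28 days, with 0.832 percent, where Trem2 was at 2.79 and Ms4a7 at 2.35. The mean level of the macrophage list at 28 days was -0.11 to 0.91 in saline and 1.11 to 2.31 with Ang II. Of 8 genes of all leukocytes, 4 were called higher at 7 days (median 1.13), among them Laptm5 at 1.86, and 0 at 28 days (median 1.24), where Ptprc was at 1.35. Their mean level at 28 days was -1.31 to -0.16 in saline and -0.83 to 1.64 with Ang II. With array-median background 2 of these 8 genes were called at 28 days (median 1.28), where 1.16 percent of all genes were called. At 28 days none of 10 B cell genes (median 0.68), none of 6 lymphoid stroma genes (median 1.06), none of 4 natural killer genes (median 0.63) and none of 5 innate lymphoid genes (median -0.17) was called. With array-median background none of these was called either, and the innate lymphoid median was 0.05. Of 7 dendritic cell genes, Itgax was called higher (1.82), and none of 9 smooth muscle genes was called (median -0.76). The mean level of lymphoid stroma genes at 28 days was 0.46 to 2.80 in saline and 1.15 to 4.04 with Ang II, and that of B cell genes -1.05 to 0.51 and -1.13 to 2.17. Their part in the Il7r and T cell values was not tested.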

How the data were processed

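RNA of 35 suprarenal aortas was measured on 2-colour Agilent arrays, 1 aorta per array, with the aorta in Cy5 and the reference in Cy3 and no dye swap. In the deposited scanner output each of 45018 spots (43379 for genes, 1639 controls) has an intensity and a local background per channel. Per the submitters' processing notes, Agilent Feature Extraction 9.5.3.1 made this output. Per the file headers, the software's own log10 ratio of aorta over reference stands beside them. The authors' deposited log2 ratios were set against that column; the regression on it had slopes of 3.321 to 3.341 and correlations of at least 0.986, so base and direction are known, and the array medians were -0.0675 to 0.109, while any further centring is not stated. The aligner and build behind the probe design are not given in the sources used here, except that the files name mm8 for probe positions.

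Intensities were background-corrected with normexp (offset 50), using the mean spot signal and the local median background, and then normalized within each array by loess. Control spots had weight 0. Spots of a probe were averaged, probes had to be well above background in the aorta on 3 arrays, and the brightest probe stood for its gene, which left 18750 genes. The aorta channel was well above background in 45 to 84.8 percent of spots and the reference channel in 54.5 to 71.9 percent, and precision is limited by how many arrays a group has. One limma model of 7 group means was fitted to 35 arrays (28 residual and 2.72 prior degrees of freedom), with Benjamini-Hochberg adjustment over all genes, in R 4.3.3 with limma 3.58.1, data.table (version 1.17.8) and statmod 1.5.0. The fit was tested on simulated data.

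The members and lists were chosen with earlier results of these data known. All 9 members are named in every comparison. From each list the genes called are named, up to 4 by size, or otherwise the 2 of largest change, shortened here, and the genes most like a member are the 3 with the highest Pearson r. Some genes that these rules name are not reported here. Same-numbered replicates did not deviate together at every time, with 6 of 14 pairs over 0.1 and r from -0.4 to 0.6, so no pairing was used. At 14 days r was 0.04 to 0.6, at 7 days -0.05 to 0.33 and at 28 days -0.4 to 0.16. Alternatives varied background, normalization, filter, probe choice, scan day, slide, array weights and single arrays. The array-median background, the sets without raised or Glycam1 arrays and the other Cd8b1 probe were chosen after seeing the data.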

Additional observations from a re-analysis of the deposited data

Results flagged for a closer look

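Of 60 groups of 4 to 6 aortas checked over the members, 14 held an aorta far from the others, where chance flags about 1 in 20 groups. Of these aortas 13 were high and 1 was low, and 12 of the high values came from aortas with a Glycam1 log2 ratio of 3 or more. Several of these results come from the same aorta and are not independent.

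Saline 14 days replicate 6, with Glycam1 at 4.55, stood apart for 6 probes: Cd3d at 4.14 (others 0.06 to 0.83), Cd3g at 1.29 (others -2.55 to -2.04), Cd8a at 3.53 (others 0.16 to 0.5), Cd28 at 0.02 (others -0.99 to -0.8), Il7r at 3.54 (others 0.31 to 0.97) and the chromosome 6 probe of Cd8b1 at 6.2 (others 0.67 to 1.17). Ang II 7 days replicate 3, with Glycam1 at 5.05, stood apart for Cd3d at 2.85 (others 0.29 to 0.71), Cd8a at 1.8 (others 0.06 to 0.33) and the chromosome 6 probe of Cd8b1 at 3.77 (others 0.72 to 0.87). Saline 28 days replicate 3, with Glycam1 at 4.42, stood apart for Cd3d at 2.51 (others 0.02 to 0.26), Cd8a at 1.37 (others 0.03 to 0.33) and the chromosome 6 probe of Cd8b1 at 3.82 (others 0.06 to 0.79).

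Away from those aortas, Cd4 was low in Ang II 14 days replicate 4 at -0.19 (others 0.01 to 0.05), and Cd28, not well above background there, was high in Ang II 7 days replicate 1 at -0.56 (others -0.7 to -0.69).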

How the results depend on the processing

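Values of the 9 members were recomputed under 55 settings, which gave 2031 values. Of these 5 reversed sign, 16 lost and 7 gained a call, and 3 descriptions of Il7r moved beyond their spread, while 230 differed in sign with neither value called. With each array centred on its median, 0 members were called at 7 days, for the mean of 3 times, for dissected aortas and between 7 and 28 days, and Cd8b1 in dissected aortas turned to -0.22. Loess followed by scaling and the mean of all probes also gave 0 in these 4 comparisons; the mean of all probes put Cd8b1 between 7 and 28 days at 0.29 and Il7r at 28 days at 1.42. The chromosome 6 probe of Cd8b1 gave 0 in the same 4, with -0.68 at 7 days, -0.43 in dissected aortas and 1.39 between 7 and 28 days. The scanner's log ratio, the authors' table and array weights each called 1 member where the effect differs among times, and array weights called 1 at 14 days and 1 between dissected and non-dissected aortas, each time Cd8b1. Within scan day 1 Il7r at 28 days was 1.25. Within scan day 2 it was 3.89, 0 members were called at 7 days and between 7 and 28 days, and 1, Cd3d, at 28 days. On that day the 28-day aortas with high Glycam1 were all from Ang II. Without the 11 Glycam1 arrays 2 members were called in dissected aortas (Cd8b1 and Lck) and 3 over time in saline (Lck, Cd3g and Cd28). With array-median background as well, 0 were called over time in saline and 0 between 7 and 28 days. The causes were not tested.

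Leaving out single aortas gave 0 to 1 calls at 14 days, in dissected aortas and among times, where the call was Cd8b1. At 14 days it was called without saline replicate 6 (adjusted p = 0.0465) or Ang II replicate 5 (adjusted p = 0.0251). Among times it was called without saline 7 days replicate 2, Ang II 14 days replicate 1 or 5, or Ang II 28 days replicate 1. Il7r at 28 days ran from 2.18 to 2.93. The Cd3g difference at 28 days fell as low as 0.03 and that of Lck to 0.15. With the replicate number as a block, 1 member was called at 7 days, for the mean of 3 times, in dissected aortas and between 7 and 28 days, and Il7r at 28 days was 2.26, so the block changed no call of a member. Signal over background limits Cd4, Cd28 and Cd8a, which were not well above background on most arrays, and the saline values of Il7r at 28 days.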
